A study of Mus musculus with 16 samples.

Results

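H3K27ac, histone H3 acetylated at lysine 27, was profiled in pachytene spermatocytes of mice, and the 4 deposited peak lists were compared here on the autosomes: wild-type lists 1 and 2 against A-myb mutant lists 1 and 2. All peaks on chr1 to chr19 were members, 84434 of the 96838 peaks on all chromosomes. The mice were on the C57BL/6J background and 8 to 12 weeks old, either wild type or homozygous for repro9, an allele of A-myb (genotype A-mybrepro9/repro9; titles call it A-myb-KO). Testicular cells of 1 male were separated by STA-PUT, sedimentation by size, and native chromatin cut with micrococcal nuclease was precipitated with an Abcam antibody to H3K27Ac. The series also holds RNA-seq of embryonic stem cells, which shares no sample with these lists and was not analysed here. No label says that lists of a genotype came from separate animals, so spreads and p-values cover these samples only and may be technical.

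A-MYB, the product of Mybl1, is a transcription factor that spermatocytes switch on at the pachytene stage of meiotic prophase, where it activates genes of meiosis, of the piRNA pathway and of later sperm formation. Males without working A-MYB arrest in meiosis. H3K27ac is laid down by p300 and CBP at active promoters and enhancers, and in most cells its tallest peaks lie at the starts of expressed genes. A preparation from an arrested testis may also hold another mix of pachytene substages, which cannot be told apart from the genotype here.

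Gene starts with a peak were few, and the promoters below show the classes that the results turn on: a start with a peak in both wild-type lists alone (Topaz1, needed for male meiosis, and Gapdhs, the sperm form of glyceraldehyde-3-phosphate dehydrogenase), a start with a peak in wild-type list 1 alone (Piwil1, the PIWI protein of pachytene piRNAs), and histone gene starts with a peak in all 4 lists (H2ac6 and H2ac12). Each sequence is RefSeq's, GRCm38.p6, from 250 bases before the start to 50 after it, and capitals mark GGCAGTT (the MYB motif) and CCAAT (the NF-Y motif) on either strand.
Topaz1, chr9:122746949-122747248, plus strand: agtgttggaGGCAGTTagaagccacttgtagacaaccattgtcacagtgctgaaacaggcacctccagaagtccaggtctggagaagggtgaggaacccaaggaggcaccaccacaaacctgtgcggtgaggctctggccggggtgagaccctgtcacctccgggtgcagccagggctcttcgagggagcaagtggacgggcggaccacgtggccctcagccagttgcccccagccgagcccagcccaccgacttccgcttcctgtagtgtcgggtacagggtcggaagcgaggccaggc
Gapdhs, chr7:30739358-30739657, minus strand: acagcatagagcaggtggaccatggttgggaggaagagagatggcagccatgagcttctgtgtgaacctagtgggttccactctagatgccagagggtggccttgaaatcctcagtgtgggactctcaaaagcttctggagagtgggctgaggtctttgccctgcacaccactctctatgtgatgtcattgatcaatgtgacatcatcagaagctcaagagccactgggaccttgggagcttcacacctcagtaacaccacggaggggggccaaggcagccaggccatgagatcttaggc
Piwil1, chr5:128735996-128736295, plus strand: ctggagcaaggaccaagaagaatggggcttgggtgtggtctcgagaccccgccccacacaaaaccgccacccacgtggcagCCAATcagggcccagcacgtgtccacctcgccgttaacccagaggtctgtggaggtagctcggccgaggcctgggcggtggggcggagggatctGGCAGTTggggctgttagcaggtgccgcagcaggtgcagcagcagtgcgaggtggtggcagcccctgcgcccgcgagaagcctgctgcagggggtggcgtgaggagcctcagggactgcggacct
H2ac6, chr13:23683910-23684209, minus strand: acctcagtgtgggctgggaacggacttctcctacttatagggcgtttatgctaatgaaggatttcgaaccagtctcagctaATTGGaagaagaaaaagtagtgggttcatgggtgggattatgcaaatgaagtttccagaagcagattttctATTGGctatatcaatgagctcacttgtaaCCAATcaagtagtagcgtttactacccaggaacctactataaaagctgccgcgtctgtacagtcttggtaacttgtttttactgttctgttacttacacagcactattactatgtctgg
H2ac12, chr13:22035594-22035893, minus strand: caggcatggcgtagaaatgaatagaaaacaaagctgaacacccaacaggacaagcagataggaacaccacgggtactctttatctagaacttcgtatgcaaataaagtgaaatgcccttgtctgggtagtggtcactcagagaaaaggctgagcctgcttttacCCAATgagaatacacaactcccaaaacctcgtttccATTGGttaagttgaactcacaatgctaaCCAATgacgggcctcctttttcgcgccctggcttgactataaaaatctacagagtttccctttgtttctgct
Topaz1 and Piwil1 hold GGCAGTT, both histone promoters hold CCAAT or its complement ATTGG, and Gapdhs holds neither word. These are matches of letters in a window, not bound sites.

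The lists did not show the placement at gene starts for which the mark is known. Of the summits outside chromosome 18 (the promoter table used holds no start there), 295 of 23692 in wild-type list 1 lay within 1 kb of a protein-coding start (1.25%), against 128 of 20135 in wild-type list 2 (0.636%), 63 of 19303 in mutant list 1 (0.326%) and 59 of 18322 in mutant list 2 (0.322%). Bases within 1 kb of a start make up 1.48% of the same chromosomes, so each of the 4 lists had fewer summits there than its share of bases, with ratios of 0.839, 0.429, 0.22 and 0.217. Wild-type list 1 stood above the others, and the gap between both wild-type lists was wider than the gap from wild-type list 2 to the mutant lists. Summits lay in gene spans in 26.0, 25.4, 25.3 and 25.2% of cases, where 40% of bases do. The median distance to a start was 130, 138, 145 and 141 kb, against 91.3 kb for bases. For these reasons the lists are called here the lists labelled H3K27ac, and no peak is called a promoter or an enhancer. The labels do not say which library was set against which in each peak call.

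**Figure D1:**
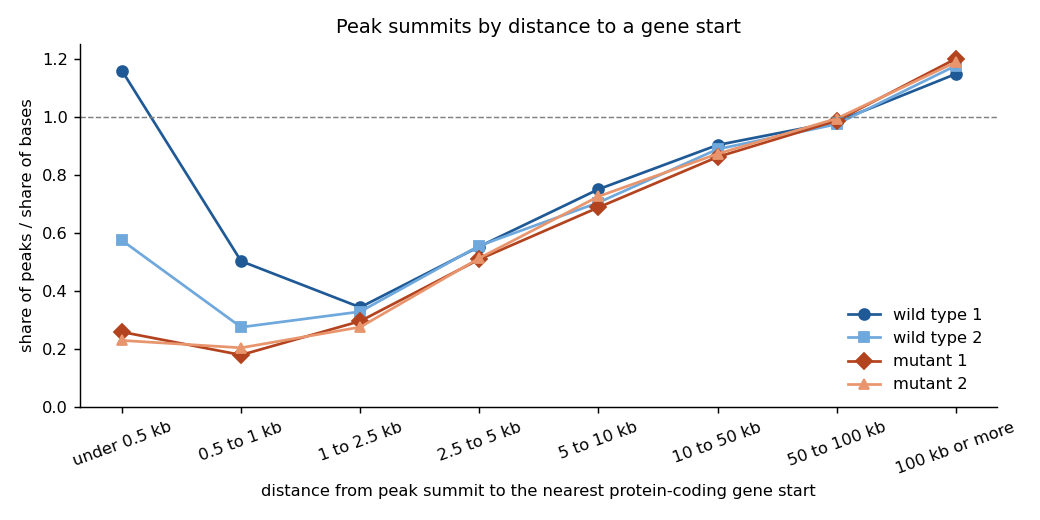
Share of peak summits divided by share of bases (y axis) in 8 classes of distance to the nearest protein-coding start (x axis), one line per list, chromosome 18 left out; the dashed line at 1 is the share of bases. Under 0.5 kb wild-type list 1 is at 1.16, wild-type list 2 at 0.575 and the mutant lists at 0.259 and 0.230, and all 4 lists rise to between 1.15 and 1.20 at 100 kb or more.

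Summits near starts in the wild-type lists sat mostly downstream of the start. In wild-type list 1, 244 of the 295 were downstream, 177 of them within 500 bases, and in wild-type list 2 98 of 128 were, 69 of them within 500 bases. The mutant lists had 40 of 63 and 36 of 59 downstream. The order under 0.5 kb, wild-type list 1 above wild-type list 2 above both mutant lists, closed by 1 to 2.5 kb, where the ratios were 0.344, 0.329, 0.296 and 0.276.

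Counted by gene, a peak lay within 1 kb of a start at 425 of 16457 protein-coding genes in wild-type list 1, 211 in wild-type list 2, 134 in mutant list 1 and 121 in mutant list 2. Starts with a peak in all 4 lists numbered 66, those in both wild-type lists alone 64, those in both mutant lists alone 9, and those in wild-type list 1 alone 238. Histone genes, which cells transcribe in S phase and which cluster on chromosome 13, had the highest share of the symbol families looked at after the values were seen: 30, 25, 23 and 18 of 74 in the order of the lists above (40.5, 33.8, 31.1 and 24.3%). In all 4 lists 11 of them had a peak. Keratin-associated protein genes (Krtap), which encode hair shaft proteins, had 7, 4, 1 and 0 of 51. Zinc finger genes named Zfp had 13, 4, 3 and 3 of 325, olfactory receptor genes 13, 6, 4 and 4 of 938, and vomeronasal receptor genes 1, 1, 3 and 3 of 322. Predicted genes named Gm had the next highest shares after the histone genes in wild-type lists 1 and 2, 119, 77, 50 and 44 of 811 in the 4 lists (14.7, 9.49, 6.17 and 5.43%), and made up 25 of the 66 starts with a peak in all 4 lists. All other protein-coding genes had 242, 94, 50 and 49 of 13936.

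Peaks at starts were rare among all genes, and the gene lists are described against that background of 2.58, 1.28, 0.814 and 0.735% of protein-coding genes in the order of the lists above. In the 14 gene lists used, 227 of 305 genes had a start in the table, and 16 of these had a peak within 1 kb in at least 1 list (7.05%), 2 of them, Rps2 and H3c2, in all 4. The share of all genes with a peak in at least 1 list was not counted. By peak list, 13, 7, 5 and 4 of the 227 had one (5.73, 3.08, 2.2 and 1.76%), and the difference from all genes was not tested. Core and linker histones gave 4, 3, 4 and 3 of these, and Rps2 gave 1 in each list. No other list gene had a peak at the start in a mutant list. The meiotic prophase list had 2 of 27 (Tex12, a central element protein of the synaptonemal complex, and Smc1b, a meiotic cohesin subunit, both in wild-type list 1 alone). The piRNA list had 1 of 19, Piwil1, also in wild-type list 1 alone. The spermatid list had 2 of 24: Gapdhs in both wild-type lists, and Tssk3, a testis-specific kinase, in wild-type list 1. Heat shock genes had 2 of 18, the inducible Hsp70 genes Hspa1a and Hspa1b, each in both wild-type lists and neither mutant list. The lists of the late pachytene cell cycle, of DNA damage signalling and of histone acetylation enzymes had 0 of 18, 0 of 21 and 0 of 19, and core and linker histones had 7 of 24.

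Too few markers had a peak at the start to check the cell type of the preparations. Among spermatocyte markers 2 of 14 had a peak at the start (Piwil1 and Smc1b, in wild-type list 1 alone). Spermatogonial markers had 0 of 13, Sertoli cell markers 0 of 7, Leydig and interstitial markers 0 of 11, and peritubular, endothelial and blood markers 1 of 9 (Hba-a1, in wild-type list 1 alone). Mybl1 itself (gene ID 17864, chr1:9667407-9700439) had 0 peaks over its span in each of the 4 lists, so the lists do not check the genotype.

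Peaks within 1 kb of a start had a median score of 71.7 and 71.7 in the wild-type lists and 69.6 and 75.1 in the mutant lists, where the lowest score in the lists is 50 and the median of all autosomal peaks was 92.2, 86.2, 77.9 and 77.6. Several germ cell genes lay at the low end. At Piwil1, wild-type list 1 had a peak of 989 bases with 57 tags, a 3.48-fold enrichment and a score of 55.65. At Smc1b it had 44 tags, 5.08-fold and a score of 57.42, and at Tex12 48 tags, 4.33-fold and 54.36. At Gapdhs, wild-type lists 1 and 2 had 61 and 53 tags, 3.42- and 3.49-fold, and scores of 56.19 and 50.62. At Topaz1 they had 43 and 39 tags, 3.76- and 3.32-fold, and scores of 52.19 and 50.14. At these 5 starts the absence of a peak from another list is a difference across a threshold, and its size is unknown. Other starts stood higher in score. Hspa1b had 114 and 98 tags and scores of 103 and 96.1, and Hspa1a had 110 and 105 tags and scores of 80.23 and 80.92. The fold was lower there than at those 5 starts, at 2.95 and 3.17 for Hspa1b and 2.94 and 2.92 for Hspa1a. Called lengths ran from 1811 to 2084 bases at these Hsp70 genes. Tcp10a, a t-complex gene, had scores of 90.58 and 67.7. Ubb, a ubiquitin gene, and H3f3b, which encodes histone H3.3, had scores of 163 and 111 in wild-type list 1 alone. Adam1a had 115 tags and a score of 182 in wild-type list 1 and 50 tags and 65.88 in wild-type list 2.

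Letter matches in the promoters cannot be compared between the genotypes, since only 9 promoter entries had a peak in both mutant lists alone. GGCAGTT, on either strand, was in 7 of 77 promoter entries with a peak at the start in all 4 lists (9.09%), in 7 of 70 with one in both wild-type lists alone (10%), in 16 of 257 with one in wild-type list 1 alone (6.23%) and in 0 of 9 with one in both mutant lists alone, against 791 of all 20085 promoters (3.94%). CCAAT was in 45 of 77 (58.4%), 38 of 70 (54.3%), 121 of 257 (47.1%) and 5 of 9 (55.6%), against 38.1% of all promoters. TGACGTCA, the cyclic AMP response element, was in 0 of 77, 0 of 70, 5 of 257 and 0 of 9, against 2.3%. The windows have 300 bases each, and some genes have several starts.

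Both mutant lists were smaller than both wild-type lists. Wild-type list 1 held 24515 autosomal peaks, wild-type list 2 held 20862, mutant list 1 held 20034 and mutant list 2 held 19023. The mean was 22688.5 ± 2583.1 in wild type and 19528.5 ± 714.9 in the mutant (SD, n = 2), a difference of -13.9%, and the closest lists of the 2 genotypes, at 20862 and 20034, lay nearer to each other than the wild-type lists did. Called length came to 39.5, 35.5, 31.7 and 28.9 Mb, a mutant difference of -19.2%. Tags in peaks came to 2782616, 2147077, 1960618 and 1768013, a mutant difference of -24.4%. The groups did not overlap in any of these values, but 2 lists against 2 cannot reach an exact permutation p below 0.33 (two-sided), which each of them had. Total reads of the libraries and of their controls are not in the files used, so depth cannot be told apart from genotype in these totals.

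**Figure D2:**
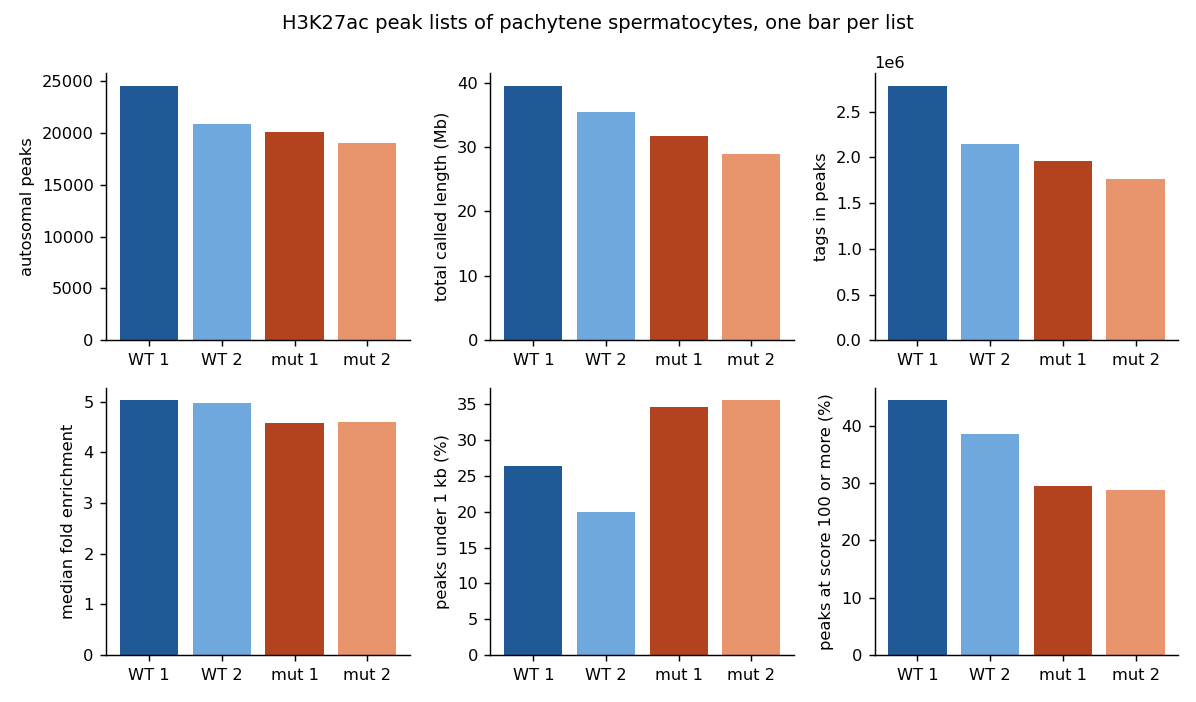
Number of autosomal peaks, total called length, tags in peaks, median fold enrichment, share of peaks under 1 kb and share with a score of 100 or more, one bar per list, with no error bars because each list gives 1 value. Both mutant bars are below both wild-type bars in 5 panels and above them in the share under 1 kb.

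Mutant peaks were also less enriched and more often short. The median fold enrichment over background was 5.03 and 4.98 in the wild-type lists and 4.58 and 4.60 in the mutant lists, a difference of -8.29%. The share of peaks with a score of 100 or more was 44.5 and 38.6% against 29.5 and 28.9%, and the share under 1 kb was 26.3 and 20.0% against 34.6 and 35.6%. The median length was 1360 and 1421.5 bases against 1278 and 1242. All of these separated the genotypes, again with the exact permutation p of 0.33. Tags per kb of called length did not: they were 70.4 and 60.5 in the wild-type lists and 61.9 and 61.1 in the mutant lists, so both mutant values lay between the wild-type ones (exact permutation p = 1). The share of peaks of 4 kb or more did not separate them either, at 3.46 and 4.24% against 4 and 3.11%.

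The fold differed most in peaks over 1 kb. Under 1 kb the median fold was 5.64 and 5.81 in the wild-type lists and 5.59 and 5.52 in the mutant lists. From 1 to 2 kb it was 5.08 and 5.01 against 4.32 and 4.30, and from 2 to 4 kb 4.15 and 4.13 against 3.63 and 3.54. At 4 kb or more it was 3.66 and 3.63 against 3.21 and 3.26. In every list the fold thus fell with length, while the median tags per kb rose, from 57.1 to 80.5 in wild-type list 1 and from 53.6 to 66.3 in mutant list 2.

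Most peaks of each list met a peak of each other list. A peak of wild-type list 1 shared at least 1 base with wild-type list 2 in 70.5% of cases and the reverse in 82.6%. Mutant list 1 was matched by mutant list 2 in 67.9% and the reverse in 71.6%. Across genotypes, 57.4 to 65.2% of wild-type peaks met a given mutant list, and 68.5 to 74.1% of mutant peaks met a given wild-type list. The mutant lists were thus matched by each other about as often as by a wild-type list, although the wild-type lists cover more bases and so meet more peaks.

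Peaks that shared a base were merged into 33417 regions, of which 9763 (29.2%) had a peak in all 4 lists, 6150 in 3, 7501 in 2 and 10003 in 1. Regions in both wild-type lists alone numbered 3078, and those in both mutant lists alone 1432. Wild-type list 1 alone had 3888, which is more than either class, mutant list 1 alone 2389, mutant list 2 alone 2056 and wild-type list 2 alone 1670. The regions in all 4 lists held 41.7 and 48.5% of the peaks and 52.6 and 58.4% of the tags of the wild-type lists, and 50.9 and 53.7% of the peaks and 61.9 and 63.9% of the tags of the mutant lists. With only peaks at a score of 100 or more kept, 2417 regions were in all 4 lists, 2708 in both wild-type lists alone and 473 in both mutant lists alone. Regions counted as alone here may hold a peak of lower score in the other genotype. Fewer mutant peaks reach that score (29.5 and 28.9%, against 44.5 and 38.6% in wild type).

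**Figure D3:**
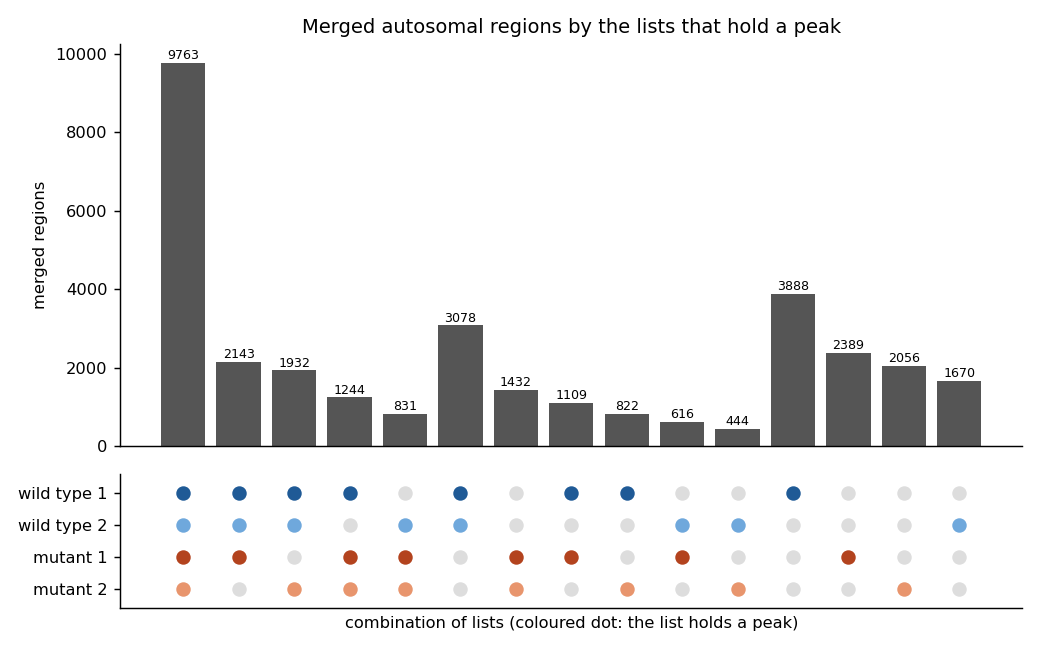
Number of merged autosomal regions (bars, y axis) for each combination of lists that hold a peak there (coloured dots under each bar). The 9763 regions in all 4 lists are the largest class, followed by 3888 in wild-type list 1 alone and 3078 in both wild-type lists alone, with 1432 in both mutant lists alone.

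Regions of 1 genotype had lower scores and smaller merged widths than shared ones. The median score was 79.9 in regions of both wild-type lists alone and 70.2 in regions of both mutant lists alone, against 109 in regions of all 4. The median merged width was 1485.5 and 1078 bases against 2021, and the median fold 4.69 and 4.865 against 5.02. A merged region spans the peaks of all lists that hold one, so more lists make it wider. A peak near the caller's threshold is also more easily absent from a list. These differences may thus follow in part from how the classes are made. A gene start lay within 1 kb of 59 regions of both wild-type lists alone (1.98%), of 6 of both mutant lists alone (0.435%), of 77 in all 4 lists (0.819%) and of 216 in wild-type list 1 alone (5.71%). The share in wild-type list 2 alone was 1.66%.

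By fold, the strongest regions of both wild-type lists alone lay away from starts. At chr14:72891094-72892182, 27.6 kb from Gm4606, the wild-type lists had 63 and 49 tags and 9.59- and 9.34-fold. At chr1:11822408-11823445, in the span of A830018L16Rik, they had 62 and 53 tags and 9.22- and 8.93-fold, and at chr7:104803554-104804667, 26.1 kb from Usp17le, a ubiquitin protease gene, 66 and 54 tags and 9.22- and 8.51-fold. Of both mutant lists alone, chr4:83591287-83592230 in the span of Ccdc171 had 52 and 56 tags and 10.29- and 10.12-fold. Next came chr13:109870620-109871635 in Pde4d, a cyclic AMP phosphodiesterase gene (62 and 52 tags, 9.62- and 8.97-fold), and chr13:49512173-49513052 in Cenpp, a centromere protein gene (49 and 50 tags, 8.72- and 8.51-fold). Called lengths at these 6 regions ran from 723 to 1114 bases. A gene span does not say whether a region is exonic or intronic, which the table used does not give.

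At the 9763 regions with a peak in all 4 lists, tags could be compared in every list. They hold no region that lost its peak in any list, so a complete loss is outside this comparison. Tags changed at 0 regions by edgeR's quasi-likelihood test with Benjamini-Hochberg adjustment over the 9763 (0% called, smallest adjusted p 0.179), while 676 regions were higher and 637 lower in the mutant at an unadjusted p under 0.05. DESeq2 called 28 higher and 33 lower. The tag change had a median of 0.01 (log2, mutant minus wild type, after TMM scaling) and reached from -1.81 to 1.81, with 142 regions over 2-fold higher and 118 over 2-fold lower. Scaled to all autosomal tags of a list in place of TMM, edgeR still called 0, but the median moved to 0.21. Both mutant lists lay above both wild-type lists at 2416 regions (24.7%) and below them at 2321 (23.8%).

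Changes in tags went with changes in called length. Across regions the log2 change in tags and the log2 change in called length had a Pearson r of 0.882 (n = 9763 regions of the same 4 lists, a description). All 260 regions that changed 2-fold or more in tags changed in length in the same direction, 251 of them by over 1.5 times, with a median absolute log2 change of 1.19 in tags and 1.09 in length. The change in fold enrichment had an r of only 0.113 with the change in tags. Called length itself was shorter in both mutant lists at 3473 regions (35.6%) and longer at 1129 (11.6%), with a median log2 change of -0.10. Since the caller sets the length from the tags, length and tags are not independent measures.

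**Figure D4:**
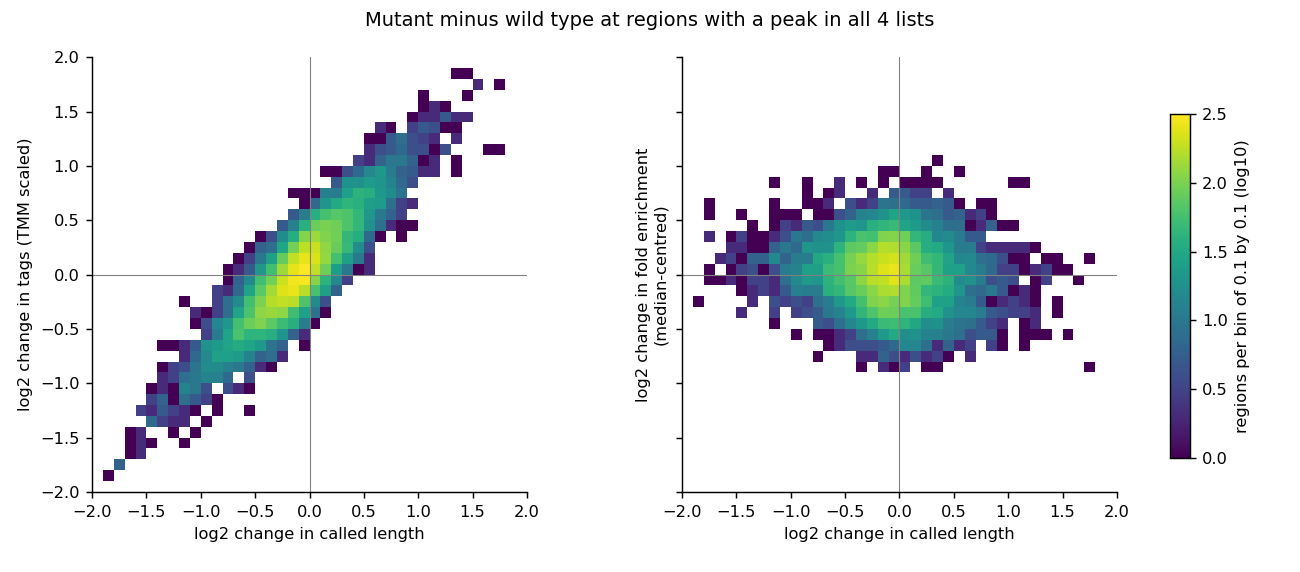
Two-way counts of the 9763 regions with a peak in all 4 lists: log2 change in called length (x axis) against log2 change in tags (left) and against log2 change in fold enrichment, centred on each list's median (right); colour is the log10 number of regions per bin. Tags lie along the diagonal (r = 0.882), and fold enrichment forms a cloud wider along length, with little slope (r = -0.11).

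With the called length as an offset, so that tags per length were compared, edgeR called 251 regions (2.57%), 200 higher (2.05%) and 51 lower (0.522%) in the mutant. That split rests on the scaling: the median of all regions was 0.11 in this fit, and with the fit centred on a median of 0 the calls were 37 higher and 168 lower. In scaled tags per kb, both mutant lists lay above both wild-type lists at 4444 regions (45.5%) and below at 1041 (10.7%), without that centring. Leaving out 1 list left 19 higher and 9 lower without wild-type list 1, 89 and 56 without wild-type list 2, 53 and 7 without mutant list 1, and 32 and 32 without mutant list 2.

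Fold enrichment, centred on each list's median over the shared regions, changed at 204 regions by limma (2.09%), 101 higher (1.03%) and 103 lower (1.06%) in the mutant. Without the centring, which removed a median of -0.18, limma called 53 higher and 1409 lower. Without wild-type list 1 the calls were 0 and 0 (548 and 504 at an unadjusted p under 0.05), so no fold call named below remained, without wild-type list 2 they were 1 and 0, without mutant list 1 12 and 5, and without mutant list 2 19 and 21. Both mutant lists were above both wild-type lists in centred fold at 2539 regions (26%) and below at 2244 (23%). Of the regions called by either measure, 22 were higher in both (11% of the 200 and 21.8% of the 101), 4 were lower in both (7.84% of the 51 and 3.88% of the 103) and 0 went opposite ways.

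The regions higher in both measures include chr9:35304779-35306082, in the long noncoding RNA gene Gm33838 and 28.8 kb from Rpusd4, a mitochondrial RNA pseudouridine synthase gene. Its tags as deposited were 226, 228, 234 and 230 in wild-type lists 1 and 2 and mutant lists 1 and 2, and after scaling both mutant lists lay above both wild-type lists (log2 0.22, edgeR adjusted p = 0.627). The fold was 21.73, 23.05, 27.58 and 26.33. The groups did not overlap in fold. Centred log2 fold was higher by 0.46 (SE 0.07, limma adjusted p = 0.00142), and tags per length by 0.60 (SE 0.10, edgeR adjusted p = 0.00183). This was also among the most enriched regions of each list.

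At chr6:115303070-115304611, 20.4 kb from Syn2, a synaptic vesicle protein gene, tags were 45, 60, 66 and 105 and the fold was 4.33, 3.95, 7.16 and 8.28, the 1 region with over 2-fold change in centred fold (log2 1.09, SE 0.18, limma adjusted p = 0.00142). At chr6:148122291-148124030, in the span of Far2, a fatty acyl reductase gene, tags were 77, 82, 99 and 96 at called lengths between 1509 and 1711 bases. Its fold was 4.45, 4.67, 7.9 and 7.13, and the centred log2 fold rose by 0.92 (limma adjusted p = 0.0117). Both regions separated the genotypes in tags as well as in fold.

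Of the regions lower in both measures, chr7:60161934-60163961 lies in the spans of Snrpn, an imprinted gene of a splicing protein, and of Snhg14. Its tags were 209, 173, 99 and 136 and its fold 6.96, 5.52, 2.9 and 3.45, lower in both mutant lists. The centred log2 fold fell by 0.77 (SE 0.17, limma adjusted p = 0.0201). At chr16:58862290-58866376, 3.03 kb from the olfactory receptor gene Olfr177, the measures parted: tags were 115, 94, 213 and 190, more in the mutant, but over called lengths of 953, 1102, 3643 and 3240 bases. The fold there was 7.89, 7.54, 3.99 and 3.31, a centred log2 change of -0.89 (limma adjusted p = 0.0125). Tags per length changed by -0.61 (edgeR adjusted p = 0.00411), and tags alone by 1.14 (edgeR adjusted p = 0.179). The wild-type peaks there were narrower with a higher fold, and the mutant peaks broader with a lower one.

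Regions with the smallest p in tags differed in called length too. At chr2:56798048-56801461, in the long noncoding RNA gene Gm33458, tags were 311, 280, 83 and 92 over 3348, 3344, 1547 and 1519 called bases, with a log2 change of -1.56 (SE 0.17, edgeR adjusted p = 0.179). Per length the change was -0.44, with an edgeR adjusted p of 0.0314, and centred fold changed by -0.44, with a limma adjusted p of 0.121. At chr16:53824677-53827190 tags were 230, 200, 66 and 76, a log2 change of -1.40, and per length of -0.45 (edgeR adjusted p = 0.0445). At chr11:19695054-19696636, 228 kb from Spred2, a MAPK inhibitor gene, the reverse was seen, with 40, 39, 98 and 103 tags over 712, 798, 1553 and 1569 bases. Here the fold was 5.27, 5.6, 8.22 and 8.34, which passed (centred log2 0.80, limma adjusted p = 0.0132), and tags had a log2 change of 1.54 (edgeR adjusted p = 0.179). At chr2:83584710-83587649, 103, 81, 180 and 198 tags went with a fold of 3.77, 3.83, 3.41 and 3.43, and centred fold changed by 0.04, with a limma adjusted p of 0.912.

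**Figure D5:**
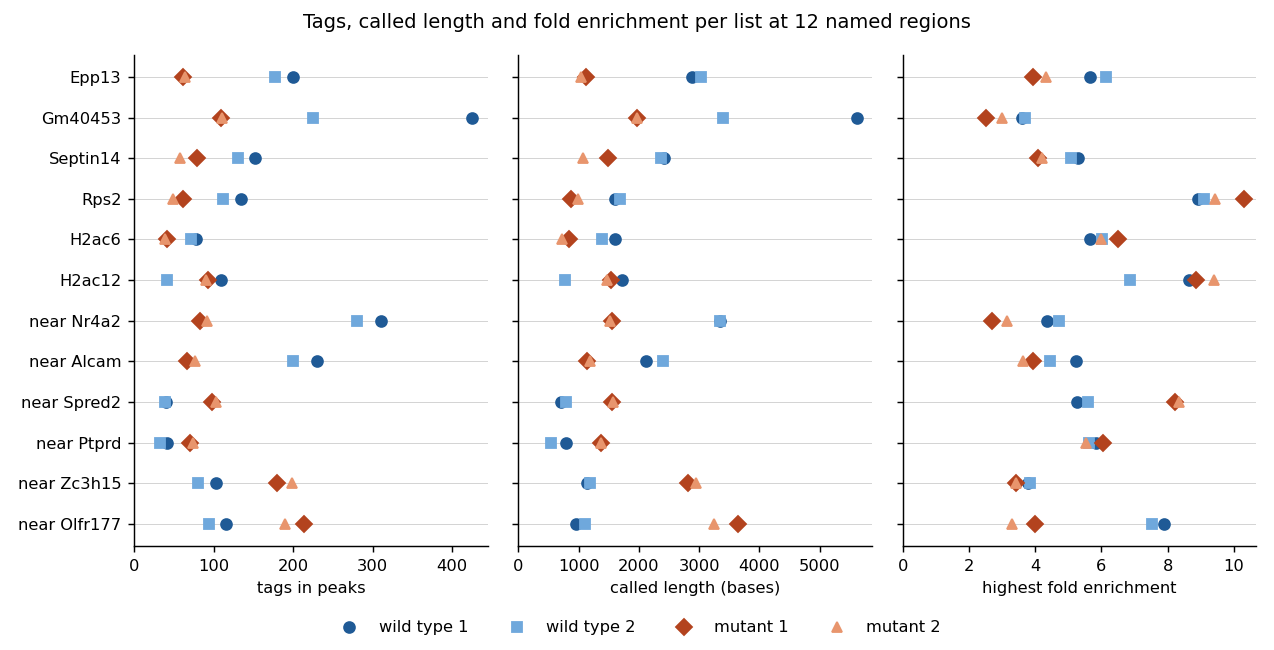
Tags in peaks (left), called length in bases (middle) and highest fold enrichment (right) at 12 named regions, labelled by the gene at the start or the nearest gene; one symbol per list, no error bars. At Epp13 both mutant lists are below both wild-type lists in tags (62 and 64 against 200 and 177) and in length (1128 and 1041 against 2888 and 3038). The fold at Rps2 is 8.9 and 9.09 in wild type and 10.29 and 9.43 in the mutant.

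Among the 77 shared regions with a start within 1 kb (0.789% of the 9763), none passed in tags by edgeR (DESeq2 was tallied over all regions only). At an unadjusted p under 0.05, 0 were higher and 13 lower, against 676 and 637 of all 9763. Their median log2 change in tags was -0.06, against 0.01 in all shared regions. Their median called length was 2398 and 2362 bases in wild-type lists 1 and 2, against 1566 and 1594 in all shared regions. By called length, 122 were higher and 253 lower from 2 to 4 kb, and 25 and 54 at 4 kb or more. Under 1 kb there were 91 and 28, and from 1 to 2 kb 438 and 302. A link of length to the lean at starts was not tested. The other measures did not share the lower direction of tags at starts. The length offset test called 2 higher and 0 lower (2.6%, against 2.57% of all regions), with a median of 0.08 against 0.11. Centred fold by limma called 2 higher and 1 lower (3.9%, against 2.09%), with a median of 0.09 against 0.02. The smallest p was at Epp13, an epididymal protein gene (chr7:6249308-6252362, 348 bases from the start; the peak of mutant list 1 lies over 1 kb from it), with 200, 177, 62 and 64 tags over 2888, 3038, 1128 and 1041 bases. There the log2 change was -1.38 (SE 0.18, edgeR adjusted p = 0.179), and per length it was 0.06. The fold was 5.65, 6.14, 3.92 and 4.33. At Gm40453 tags were 425, 225, 109 and 111, and at Septin14, a testis-expressed septin gene, 152, 131, 79 and 58. All 3 regions were lower in both mutant lists in tags and shorter there.

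Rps2, a protein of the small ribosomal subunit, was the 1 ribosomal protein gene of 19 with a peak at the start. Its region (chr17:24720047-24721749) had 134, 112, 61 and 49 tags over 1602, 1689, 881 and 985 bases, a log2 change of -0.97 (SE 0.19, edgeR adjusted p = 0.208). Its fold of 8.9, 9.09, 10.29 and 9.43 was not lower in the mutant. The H2ac6 region, around a core histone gene whose promoter is printed above, had 78, 71, 42 and 39 tags over 1597, 1392, 847 and 720 bases and a fold of 5.64, 6.02, 6.49 and 5.98. At the shared start of H2ac12 and H2bc12 tags were 109, 41, 93 and 90, where wild-type list 2 was the low one; after scaling both mutant lists lay above both wild-type lists (log2 0.51, edgeR adjusted p = 0.614). H3c2, another core histone gene, had 51, 40, 44 and 42 tags as deposited. After scaling, both mutant lists lay above both wild-type lists (log2 0.11, edgeR adjusted p = 0.838), and its fold of 8.09, 7.48, 6.93 and 5.75 overlapped once centred.

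Differences toward the mutant near starts were smaller, and are of scaled tags. The region 966 bases from the start of Gm21083 had 156, 143, 173 and 164 tags as deposited (log2 0.36, edgeR adjusted p = 0.384), while a separate peak over that start was in both wild-type lists alone. Gm12888 had 73, 56, 75 and 67, and Gm32584 had 68, 72, 88 and 72 at a fold of 11.47, 12.04, 15.88 and 13.11. Of these, the last passed in centred fold (log2 0.49, limma adjusted p = 0.0371). These are predicted genes, some with near-identical copies between which reads can be split, so their values are uncertain. Speer4c, of a rodent family of repeated testis genes, had 551, 521, 545 and 529 tags, close in all 4 lists.

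By called length, the calls were spread over all classes of shared region. Of the 1617 regions under 1 kb, 32 were higher and 2 lower in centred fold by limma (2.1% called), and of the 5119 from 1 to 2 kb 48 were higher and 86 lower (2.62%). The 2219 from 2 to 4 kb had 16 and 13 (1.31%), and the 808 of 4 kb or more had 5 and 2 (0.866%). The median centred change was 0.14 under 1 kb and -0.03 from 1 to 2 kb. In regions with 1 peak in each list (8720), summits lay a median of 38 bases apart between the wild-type lists, 53 between the mutant lists and 52 to 56 across genotypes. The distance across genotypes was close to that between the mutant lists.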

How the data were processed

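The submitters' processing notes, per the labels, list Bowtie2 2.3.3.1, MACS 1.4.2 and mm10; settings and control libraries are not given in the sources used here. The authors' deposited lists, 1 per library, give each peak's position, its tags as whole counts, its fold enrichment as a ratio, and a score. The score column of the deposited files is headed -LOG10(pvalue) but starts at 50, as MACS 1.4 writes 10 times the negative log10 of p, and was used only to rank and threshold. Peaks within a list do not overlap.

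Peaks of the 4 lists that share at least 1 base were merged, tags and lengths summed per list and region, and the highest fold taken. Tags were tested with edgeR 4.0.16 (TMM, glmQLFit robust, glmQLFTest, 2 residual degrees of freedom), with log called length as an offset in an added test, and log2 fold, centred on each list's median with no pseudocount, with limma 3.58.1 (trend; R 4.3.3). Tests were two-sided, mutant minus wild type, Benjamini-Hochberg adjusted over 9763 regions, threshold 0.05. DESeq2 1.42.0 was an alternative. The SE beside an edgeR value is the absolute log2 change over the root of the F statistic, and limma's is its moderated one. The edgeR fit of tags and the limma fit of fold were tried on simulated data, drawn with no link between length and tags. The length offset fit was not.

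Starts are those of protein-coding genes in RefSeq's promoter table (GRCm38.p6, the assembly of mm10). Named regions are those with the smallest p and separate groups in tags and fold, since none passed in tags (up to 10 each way at starts, 3 away from them), list members, and the 3 of each genotype alone with the highest smaller fold; other regions, families and germ cell genes were chosen after their values were seen. Members, gene lists and tests were chosen with earlier results of these data known. Replicate numbers did not pair the lists (correlation of deviations -0.01). Over all shared regions replicate lists differed by more than sampling noise (chi-square over its degrees of freedom 3.93 in wild type and 6.27 in mutant). They were kept as separate samples. Where the called lengths of both lists lay within 1.1 times, it was 0.776 in wild type (4482 regions) and 0.676 in mutant (3641 regions). The caller sets the length from the tags, so choosing regions of like length also chooses like tags. These low values thus cannot measure the noise between replicates. The p-values of the length offset test may still describe technical spread only.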

Additional observations from a re-analysis of the deposited data

How the results depend on the processing

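With 2 lists a genotype, limited depth information and 2 residual degrees of freedom, small changes cannot be told from noise, and only peaks over the caller's threshold are seen. The mutant to wild-type ratio of peak number was 0.861, and 0.601 at a score of at least 100 and 0.732 at a fold of at least 10. At those limits the ratio of median length was 0.958 and 0.821 (0.906 as deposited) and that of median fold 0.984 and 1.01 (0.917 as deposited), the last a reversal. The ratio of median tags was 0.790 at a fold of at least 10. At a score of at least 100, regions in all 4 lists fell to 2417 and those in the mutant lists alone to 473, where a wild-type peak of lower score may remain. Leaving out 1 list gave 4790 to 7026 regions in wild type alone and 2274 to 3876 in mutant alone, since fewer lists must then hold a peak or lack one. Shared regions with a start rose from 77 to 156 with starts within 2.5 kb.

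The tag test called 0 regions under each alternative except DESeq2 (28 higher, 33 lower) and the length offset (200, 51); with a replicate block it called 0 and 0. The offset test gave 102 and 16 with a replicate block, 81 and 44 at called lengths within 1.5 times, 37 and 168 when centred, and 19 to 89 higher and 7 to 56 lower without 1 list. Centred fold gave 198 and 207 with a replicate block, 60 and 57 with a length-weighted mean, 53 and 1409 uncentred, and 0 to 19 higher and 0 to 21 lower without 1 list. All 11 named fold calls were lost without either wild-type list, where smallest adjusted p-values by limma were 0.357 and 0.0311. Named by smallest p or as list members were 20 regions. Among these, the tag change turned under the length offset at Epp13 (0.0587), Septin14 (0.041) and Tnfsf10 (0.0122, and 0.123 by total tags). It also turned at chr2:83584710-83587649 (-0.0694), chr19:61169160-61173607 (0.102) and H3c2 (-0.00033). Regions chosen after their values were seen had larger turns. They include H2ac6 (log2 -0.685 in tags, 0.25 per length) and chr16:58862290-58866376 (1.14 and -0.612). The added alternatives were chosen after seeing the data.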

Other observations

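The 3 regions with the most tags in all 4 lists were picked after their values were seen, and 2 of them overlap annotated pseudogenes. The region with most tags, chr1:24611161-24616657, over the pseudogenes Gm10222 and Gm10925, had 3368 and 3221 tags in the wild-type lists and 2922 and 2818 in the mutant lists, at a fold of only 2.67, 2.68, 2.71 and 2.72. At chr17:39842552-39849256, over Rn18s-rs5, a pseudogene related to 18S ribosomal RNA, tags were 2544, 2277, 1778 and 1841 and the fold 3.61, 3.47, 3.59 and 3.79. At chr9:2999923-3005204, which overlaps no annotated gene and lies 330 kb from the nearest protein-coding one, tags were 1199, 1165, 1367 and 1343, and tags per length were higher in the mutant by 0.40 (log2, SE 0.06, edgeR adjusted p = 1.1e-04). A second region there, chr9:3031661-3035803, had the smallest adjusted p of the length offset test (8.24e-07; log2 0.77, SE 0.08), with 317, 419, 292 and 357 tags over 2425, 4143, 1503 and 2322 bases. Its wild-type lists differed from each other more than the genotypes did in tags. No repeat annotation was used, so regions of repeated sequence were not removed from any test. Tags at regions such as these may include reads of several copies, and their values and p-values are uncertain.

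Peak density varied between chromosomes. Over the 19 autosomes, peaks per Mb and genes per Mb had a Pearson r of -0.49 and -0.60 in the wild-type lists and -0.69 and -0.73 in the mutant lists, and a Spearman rho of -0.34, -0.48, -0.57 and -0.64 (19 chromosomes of the same genome, a description). Chromosome 11, with 13.2 genes per Mb, had the fewest peaks, 6.66 and 5.79 per Mb in wild type and 5.49 and 5.50 in the mutant. Chromosome 7, the most gene-rich at 14.0 genes per Mb, went against this order in wild type, with 11.2 and 9.09 peaks per Mb, against 8.13 and 7.64 in the mutant.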
